A study of Mus musculus with 6 samples.

Results

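Genes of sympathetic nerves and Schwann cells were examined in subcutaneous fat of the groin (inguinal white adipose tissue) of Naa10-KO and WT mice. The set holds 7 of the 18193 genes measured: Th, Dbh, Npy, Ngfr, Mbp, Sox10 and S100b. Members were chosen by gene symbol, and every probe set annotated to exactly 1 of these symbols was used, 21 in all. The Naa10-KO group was 3 male mice that lack Naa10, the enzyme of a complex that acetylates the N-termini of proteins, and the WT group was 3 wild-type male mice. Both groups were 6 weeks old when a high-fat diet (60% of calories) began, stayed on it for 15 weeks, and then spent 4 h at 4 °C just before sampling. The labels give neither the knockout allele nor a strain, and no probe set carried the name Naa10 in the annotation used, so the genotype labels were not checked against the targeted transcript. Each mouse gave 1 Affymetrix Mouse Genome 430 2.0 array. All values are log2 signals as deposited, and differences are Naa10-KO minus WT.

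Sympathetic nerves carry the cold signal to fat. Their endings release noradrenaline, which acts through β-adrenergic receptors on adipocytes to raise cAMP, release fatty acids and switch on heat production. The cell bodies of these neurons sit in ganglia outside the depot, so a piece of fat holds their axons and endings but few or none of their nuclei. Schwann cells, in contrast, lie along the axons inside the tissue with their nuclei, and either wrap an axon in myelin or hold bundles of thin unmyelinated axons.

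Of the 7 genes, 0 passed the test across all genes in either direction (limma, Benjamini-Hochberg adjusted p threshold of 0.05). Among all genes 0.115% passed, 0.0879% as higher and 0.0275% as lower in Naa10-KO fat. Means were higher in Naa10-KO fat for 5 members and lower for 2, where 51.4% of all genes had higher means. The median log2 difference of the 7 was 0.78, the value of Ngfr, against 0.01 over all genes. With values below 5.85, the median of all probe set values, raised to that level, it was 0.14, against 0 over all genes. Adjusted p-values of the 7 lay between 0.483 and 0.831. The genotypes did not overlap for 2 members, S100b, lower in Naa10-KO fat, and Mbp, higher there. Non-overlap in 1 direction or the other was seen in 18.1% of all genes. Both members were above 5.85 on all 6 arrays. The other 5 lay near or below that level, which is used here as a mark for low signal. Detection calls were not used, and a value under the mark may or may not exceed background.

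**Figure D1:**
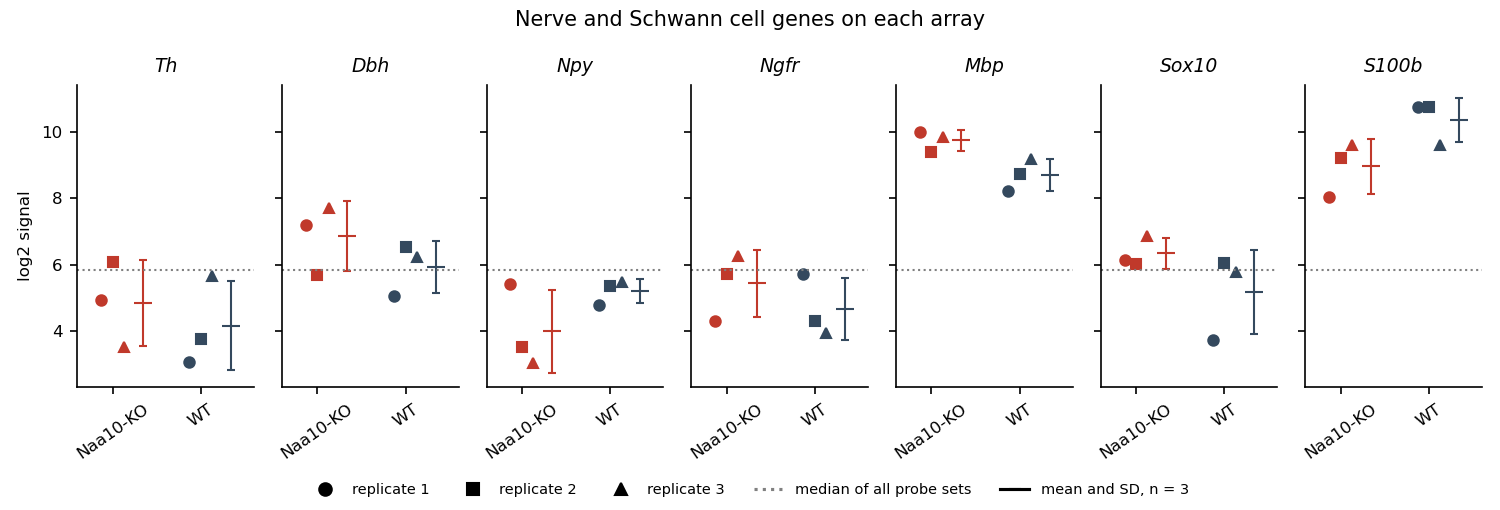
Log2 signal of the 7 genes on each array, with Naa10-KO (red) left of WT (blue), 1 symbol per mouse, and the mean with its SD (n = 3) beside the points; the dotted line is the median of all probe set values, 5.85. Mbp and S100b lie above the line on all arrays with genotypes apart, whereas the points of the other 5 genes overlap.

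Over all 18193 genes, 16 passed as higher and 5 as lower in Naa10-KO fat. Correlations between pairs of arrays were 0.903 to 0.916, and array medians lay between 5.77 and 5.96. The adipocyte gene Adipoq was at 15.71 ± 0.13 on the Naa10-KO arrays and 15.61 ± 0.16 on the WT arrays (SD, n = 3 each). This bears out fat as a source of the RNA, but not the depot or the purity of the tissue. All 20 listed muscle markers had higher means in Naa10-KO fat (median log2 difference 4.94), with 1 past the threshold, and the genotypes of 18 did not overlap. In Naa10-KO fat their summed linear signal was 129014 to 163766, against 8445 to 23222 in WT fat. The muscle creatine kinase Ckm was at 12.58, 12.75 and 13.54 on the Naa10-KO arrays and at 4.71, 5.35 and 9.25 on the WT arrays. Muscle carries nerves and Schwann cells of its own, and the part of this muscle signal in the values below was not tested.

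Th encodes tyrosine hydroxylase, the rate-limiting enzyme of noradrenaline synthesis and the usual marker of sympathetic fibres in fat. Its gene lies on chromosome 7 (142892779 to 142899995, GRCm38.p6). The 250 bases before its start hold a cAMP response element, a classical control site of this gene, and are shown beside those of S100b, the member with the largest difference. The sequences are from RefSeq, build GRCm38.p6, chr7:142899996-142900245 on the minus strand for Th and chr10:76253586-76253835 on the plus strand for S100b, written 5′ to 3′ in the direction of the gene. Capitals mark a match to any of the motifs searched.
Th: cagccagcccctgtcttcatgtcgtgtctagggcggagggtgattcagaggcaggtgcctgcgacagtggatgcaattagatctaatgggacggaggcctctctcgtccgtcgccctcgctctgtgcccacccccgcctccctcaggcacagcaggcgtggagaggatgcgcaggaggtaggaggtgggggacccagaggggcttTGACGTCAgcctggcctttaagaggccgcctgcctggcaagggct
S100b: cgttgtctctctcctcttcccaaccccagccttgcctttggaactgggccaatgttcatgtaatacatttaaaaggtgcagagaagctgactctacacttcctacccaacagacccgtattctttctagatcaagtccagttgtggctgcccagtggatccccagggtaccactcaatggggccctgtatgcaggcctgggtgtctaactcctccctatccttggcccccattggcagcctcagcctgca
The motifs were TGACGTCA, the cAMP response element, and ACAAAG and AACAAT, cores bound by SOX factors, on both strands. The cAMP response element stood 45 to 38 bases before the Th start. Among the 250-base windows of all 32851 promoters in the table, 1.55% held TGACGTCA, 16.5% held ACAAAG and 9.42% held AACAAT. Windows of 5 members were in the table (Th, Dbh, Npy, Ngfr and S100b), and apart from the match in Th none of them held any of the 3 motifs.

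Th was measured by 1 probe set, at 4.93, 6.09 and 3.51 on the Naa10-KO arrays and at 3.08, 3.74 and 5.65 on the WT arrays. Naa10-KO replicate 2 was the only one of the 6 arrays above 5.85, and the genotypes overlapped widely. The difference of 0.69 (SE 0.93, 95% interval -1.66 to 3.03, adjusted p = 0.831) was smaller than the SD within either genotype, 1.29 in Naa10-KO and 1.34 in WT. In such bulk tissue, a change in the number of nerve fibres and a change in RNA per fibre cannot be told apart.

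Dbh encodes dopamine β-hydroxylase, which turns dopamine into noradrenaline inside the vesicles of sympathetic endings. Its probe set of highest mean was at 7.19, 5.68 and 7.72 on the Naa10-KO arrays and at 5.04, 6.52 and 6.23 on the WT arrays. Naa10-KO replicates 1 and 3 lay above all WT arrays and replicate 2 within them (log2 difference 0.93, SE 0.66, 95% interval -0.74 to 2.60, adjusted p = 0.688). This probe set ends in x_at, a type that can also bind related transcripts. The other 2 Dbh probe sets had means below 5.85, and their differences were -0.37 and 0.68, so the direction for Dbh depended on the probe set. With probe sets ending in x_at and s_at left out, the value for Dbh was -0.37.

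Of the list for noradrenaline synthesis and handling, 14 of 16 genes were measured, 0 passed in either direction, and 5 means were higher and 9 lower (median log2 difference -0.07). Maoa, the monoamine oxidase that breaks down noradrenaline in many cell types, was at 11.23, 11.66 and 11.41 on the Naa10-KO arrays and at 12.37, 12.52 and 12.16 on the WT arrays. Every Naa10-KO array was thus below every WT array, as in 8.14% of all genes (log2 difference -0.91, SE 0.19, adjusted p = 0.288). Its second probe set differed by -1.34. Maoa passed with eBayes trend and robust options (adjusted p = 0.0111) and in none of the other 15 alternatives, whose adjusted p-values were 0.0800 to 0.616. Pcbd1, which recycles the cofactor of tyrosine hydroxylase, averaged 10.41 ± 0.38 in Naa10-KO and 11.17 ± 0.10 in WT fat (log2 difference -0.75, adjusted p = 0.485).

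The transporters of the sympathetic ending and the decarboxylase were near or below 5.85. Slc6a2, the noradrenaline reuptake transporter, averaged 6.05 ± 0.64 in Naa10-KO and 6.30 ± 0.62 in WT fat, and its 4 probe sets differed by -0.79 to 0.97. Ddc, the decarboxylase between tyrosine hydroxylase and dopamine β-hydroxylase, averaged 5.24 ± 0.97 in Naa10-KO and 5.26 ± 1.01 in WT fat (log2 difference -0.03, 95% interval -1.81 to 1.75). A second Ddc probe set, with a mean below 5.85, differed by 0.85. The vesicular transporters Slc18a2 and Slc18a1 differed by -0.87 and -0.96, with SEs of 0.74 and 0.78. The other Slc18a1 probe sets, also with means below 5.85, differed by 0.46 and 0.49, so the direction for Slc18a1 depended on the probe set. Cyb561, a cytochrome of the vesicle membrane that supplies electrons for dopamine β-hydroxylase, averaged 8.04 ± 0.22 in Naa10-KO and 7.81 ± 0.18 in WT fat (log2 difference 0.23, adjusted p = 0.720).

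Npy encodes neuropeptide Y, which sympathetic neurons release together with noradrenaline and which adipose tissue itself can also make. Its single probe set was at 5.42, 3.50 and 3.05 on the Naa10-KO arrays and at 4.79, 5.34 and 5.47 on the WT arrays. All 6 values lay below 5.85. Naa10-KO replicates 2 and 3 were below all WT arrays, and Naa10-KO replicate 1 lay among them. The mean was 3.99 ± 1.26 in Naa10-KO and 5.20 ± 0.36 in WT fat (log2 difference -1.21, SE 0.66, 95% interval -2.88 to 0.45, adjusted p = 0.612). Without Naa10-KO replicate 1 the difference was -1.93, and without Naa10-KO replicate 3 it was -0.74, with neither past the threshold. With low values raised to 5.85 no difference was left, since no array reached that level.

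Of the list for noradrenaline and neuropeptide Y receptors, 7 of 14 genes were measured, 0 passed, and 4 means were higher and 3 lower (median log2 difference 0.08). Npy1r, a neuropeptide Y receptor that curbs lipolysis in adipocytes, averaged 6.26 ± 0.78 in Naa10-KO and 6.14 ± 0.19 in WT fat (log2 difference 0.12, 95% interval -0.93 to 1.16). Dpp4, the peptidase that trims neuropeptide Y and so shifts its receptor preference, was at 9.46 ± 0.23 in Naa10-KO and 9.10 ± 0.13 in WT fat (log2 difference 0.35, adjusted p = 0.601). Its 4 probe sets all had higher means in Naa10-KO fat, by 0.22 to 0.49. Npy2r, Npy4r and Adra1b, an α-adrenergic receptor, had means below 5.85 in both genotypes and differed by -1.44, 0.33 and -0.66.

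Most of the wider list of sympathetic neuron and axon genes was low. Of 22 measured genes, 19 had a mean over the 6 arrays below 5.85, whereas 62.5% of all genes had one at or above it. The list had 0 genes past the threshold, 14 means higher and 8 lower, and a median log2 difference of 0.29. Stmn2, a microtubule regulator of growing axons, averaged 6.67 ± 0.58 in Naa10-KO and 5.93 ± 0.46 in WT fat (log2 difference 0.74, adjusted p = 0.603), but its second probe set differed by -0.04. Phox2a, a transcription factor of noradrenergic neurons, differed by 0.85 (adjusted p = 0.611), with all 6 arrays below 5.85 and overlapping genotypes. The neurofilament gene Nefm differed by 1.71, with means of 2.96 in Naa10-KO and 1.26 in WT fat and overlapping genotypes. Gap43, a growth cone protein, was at -0.17 on Naa10-KO replicate 1, 4.36 and 5.30 on the other Naa10-KO arrays, and 5.66, 5.11 and 5.41 on the WT arrays. The Gap43 difference of -2.23 rested on that array, and it was -0.56 without it.

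Ngfr encodes the low-affinity receptor for nerve growth factor, p75, which marks immature and non-myelinating Schwann cells and sympathetic axons, and in fat also some perivascular and stromal cells. Its probe set of highest mean was at 4.30, 5.73 and 6.27 on the Naa10-KO arrays and at 5.72, 4.29 and 3.95 on the WT arrays. Of these, Naa10-KO replicate 3 alone lay above 5.85, and the genotypes overlapped (log2 difference 0.78, SE 0.70, 95% interval -0.97 to 2.54, adjusted p = 0.741). The other 2 Ngfr probe sets were lower still, with means over the 6 arrays down to 1.58, and differed by 0.32 and 1.26. With values below 5.85 raised to it, the difference for Ngfr was 0.14.

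Of 23 genes of nerve growth factor, GDNF-family and neuregulin signalling, 20 were measured, 0 passed, and 12 means were higher and 8 lower (median log2 difference 0.14). Nrg4, a neuregulin secreted by adipocytes, above all by brown ones, was at 12.94, 12.72 and 12.74 on the Naa10-KO arrays and at 12.07, 12.16 and 12.17 on the WT arrays. The genotypes were clearly apart, with SDs of 0.12 in Naa10-KO and 0.06 in WT fat (log2 difference 0.67, SE 0.14, adjusted p = 0.302), and its second probe set differed by 0.59. Nrg4 passed with eBayes trend and robust options (adjusted p = 0.0174) and in none of the other 15 alternatives, whose adjusted p-values were 0.0649 to 0.682. Of all genes, 10% had every Naa10-KO array above every WT array.

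Erbb3, the neuregulin receptor on which Schwann cells depend, averaged 7.11 ± 0.10 in Naa10-KO and 7.07 ± 0.19 in WT fat (log2 difference 0.04, 95% interval -0.37 to 0.44). Among ligands and receptors of the GDNF family, the ligand neurturin, Nrtn, was at 6.62, 6.94 and 6.65 on the Naa10-KO arrays and at 6.06, 5.34 and 5.87 on the WT arrays (log2 difference 0.98, adjusted p = 0.405). The shared signalling receptor Ret was at 7.35, 8.33 and 8.24 on the Naa10-KO arrays and at 9.25, 8.83 and 9.05 on the WT arrays (log2 difference -1.07, adjusted p = 0.479). Neither gene's genotypes overlapped, with Nrtn above and Ret below WT, and the second Ret probe set differed by -0.75. The co-receptors Gfra3 and Gfra1 differed by 0.71 and 0.37, and neither passed.

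Sox10 encodes the transcription factor that specifies Schwann cells and keeps them in that state, and that also acts in melanocytes. Its probe set of highest mean was at 6.15, 6.00 and 6.87 on the Naa10-KO arrays and at 3.72, 6.04 and 5.79 on the WT arrays. The 3 Naa10-KO arrays lay above 5.85, against 1 WT array, and Naa10-KO replicate 2 fell just below WT replicate 2. The difference was 1.16 (SE 0.68, 95% interval -0.56 to 2.88, adjusted p = 0.639). Without WT replicate 1, the lowest array, it was 0.43. The other 2 Sox10 probe sets differed by -0.16 and 0.90, and each of the 3 had a mean over the 6 arrays below 5.85. Tyr, the melanocyte enzyme tyrosinase, averaged 5.20 ± 0.57 in Naa10-KO and 5.26 ± 0.11 in WT fat. The 8 melanocyte markers split evenly, with 4 means higher and 4 lower. Their summed linear signal was 2474 to 3176 in Naa10-KO fat, against 2052 to 2546 in WT fat. These ranges overlapped, and the part of melanocytes in the Sox10 values was not tested.

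S100b encodes a small calcium-binding protein that is a standard marker of Schwann cells. In mice it is also made by thermogenic adipocytes, from which it is released with the help of a product of the Clstn3 locus and promotes sympathetic innervation. Its gene lies on chromosome 10 (76253836 to 76261319). The probe set of highest mean was at 8.04, 9.23 and 9.61 on the Naa10-KO arrays and at 10.74, 10.75 and 9.61 on the WT arrays. WT replicates 1 and 2 were high and nearly equal, whereas WT replicate 3 exceeded Naa10-KO replicate 3 by only 8.8e-04, so the genotypes just failed to overlap.

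S100b averaged 8.96 ± 0.82 in Naa10-KO and 10.37 ± 0.65 in WT fat, a log2 difference of -1.41 (SE 0.53, 95% interval -2.75 to -0.06), or 0.377 of the WT level. The unadjusted p was 0.0431, and 9.2% of all genes were under 0.05, 4.85% as higher and 4.35% as lower in Naa10-KO fat. The adjusted p was 0.539. An exact 2-sided permutation test gave p = 0.10, the smallest it can give with 3 arrays against 3. The second S100b probe set was at 7.20, 8.24 and 8.11 on the Naa10-KO arrays and at 9.79, 10.01 and 8.34 on the WT arrays. It had the same order of arrays at its ends, with Naa10-KO replicate 1 lowest and WT replicate 2 highest, and a difference of -1.53 (SE 0.55). Every Naa10-KO array was below every WT array in 8.31% of all probe sets. Both probe sets measure 1 gene in the same RNA and are not independent.

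With each array left out in turn the S100b difference lay between -1.78 and -0.95, the smallest without Naa10-KO replicate 1. That array also stood apart in the control probe sets for Gapdh, where its 3′ signal exceeded its 5′ signal by 0.55 (log2). That difference was 0.01 and -0.19 on Naa10-KO replicates 2 and 3, and between -0.27 and -0.17 in WT. In the actin control probe sets the 3′ excess was 2.07 on Naa10-KO replicate 1 and 1.63 and 1.42 on replicates 2 and 3. WT arrays lay between 1.59 and 1.85 there, so Naa10-KO replicate 1 was again highest but less far from the others. The largest S100b difference was that without WT replicate 3. This WT array had the highest mean over the muscle markers, 8.21, against 4.88 and 5.28 on the other WT arrays. The parts of RNA quality and muscle in the S100b values were not tested.

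Most markers of thermogenic adipocytes had higher means in Naa10-KO fat. Ucp1, the uncoupling protein, was at 9.56, 10.75 and 9.55 on the Naa10-KO arrays and at 4.75, 4.01 and 2.60 on the WT arrays (log2 difference 6.17, adjusted p = 0.0713). Of the 10 thermogenic markers 7 had higher means in Naa10-KO fat, with 0 past the threshold. Their summed linear signal was 14452 to 20114 in Naa10-KO fat, against 5118 to 8333 in WT fat. Clstn3 averaged 7.92 ± 0.38 in Naa10-KO and 8.35 ± 0.39 in WT fat (log2 difference -0.42, SE 0.30, adjusted p = 0.683). Its probe set was matched by symbol, so no value is given for the shorter adipocyte transcript of that locus.

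**Figure D2:**
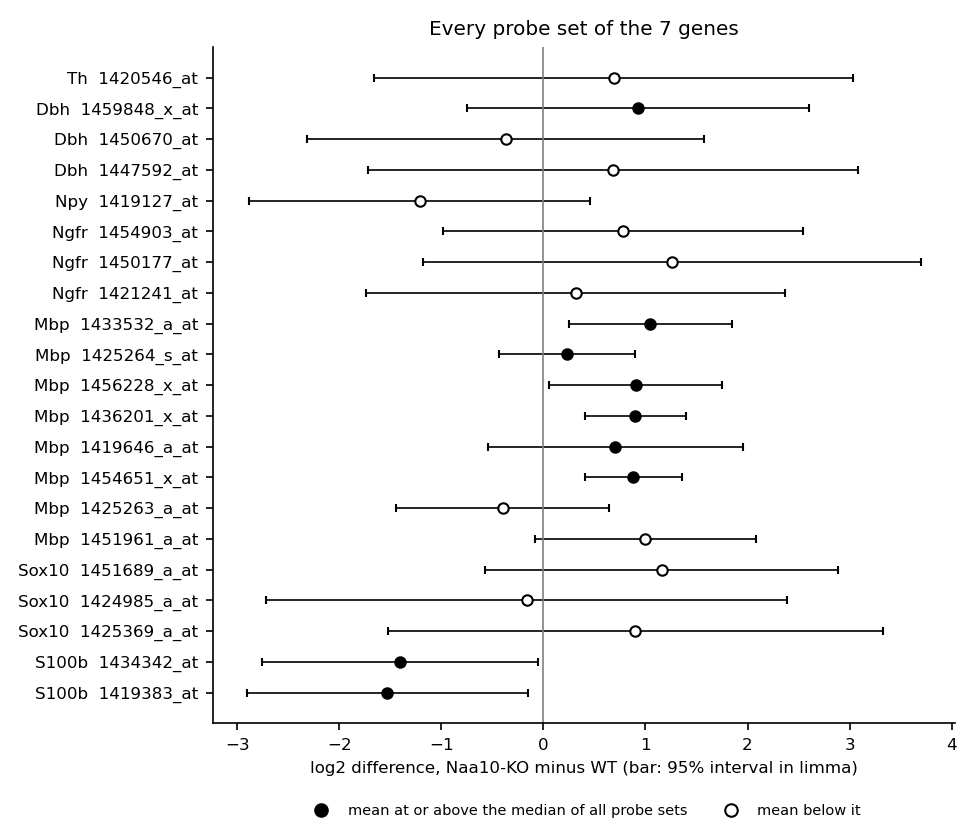
Log2 difference, Naa10-KO minus WT, of each of the 21 probe sets of the 7 genes, with 95% intervals from limma over all probe sets; open points have a mean over the 6 arrays below 5.85. Both S100b probe sets lie left of 0 and 7 of 8 Mbp probe sets right of it, while the intervals of all Th, Dbh, Npy, Ngfr and Sox10 probe sets include 0.

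Across the 18 measured genes of the Schwann cell lineage list, 0 passed, and 13 means were higher and 5 lower (median log2 difference 0.19). Cdh19, a cadherin of Schwann cell precursors and mature Schwann cells, was at 9.01, 9.02 and 8.78 on the Naa10-KO arrays and at 8.05, 8.14 and 8.69 on the WT arrays. The genotypes did not overlap, though WT replicate 3 came close (log2 difference 0.64, SE 0.22, adjusted p = 0.510). Dhh, a hedgehog ligand that Schwann cells send to the nerve sheath, differed by 0.63, with its second probe set at -0.78. Sox2, a factor of immature Schwann cells, differed by -0.86 (SE 0.23, adjusted p = 0.445), with every Naa10-KO array below every WT array but all 6 below 5.85. In this list the genotypes were thus apart for Cdh19, with Naa10-KO above WT, and for S100b and Sox2, with Naa10-KO below WT. Among all genes, 18.1% had genotypes apart in either direction.

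Mbp encodes myelin basic protein, which compacts the myelin sheath. The same locus also makes golli transcripts, found in immune cells. The gene lies on chromosome 18 (82475091 to 82585637, GRCm38.p6) and has 8 probe sets on the array. The probe set of highest mean was at 10.01, 9.40 and 9.85 on the Naa10-KO arrays and at 8.22, 8.73 and 9.18 on the WT arrays. No WT array reached the Naa10-KO arrays, and WT replicate 3 was nearest to them. The mean was 9.76 ± 0.32 in Naa10-KO and 8.71 ± 0.48 in WT fat, a log2 difference of 1.05 (SE 0.31, 95% interval 0.27 to 1.82, 2.06-fold). With an adjusted p of 0.483 it did not pass, and the exact 2-sided permutation test gave p = 0.10, the smallest possible.

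Of the 8 Mbp probe sets, 7 had higher means in Naa10-KO fat and 1 lower, with differences from -0.40 to 1.05. The genotypes were apart in 4 of them, each with Naa10-KO above WT, as in 8.55% of all probe sets. An unadjusted p under 0.05 was reached by 4 of the 8, against 8.2% of all probe sets. The 8 probe sets measure 1 gene in the same RNA and are not independent, so these counts are not separate results. The smallest unadjusted p belonged to a probe set ending in x_at, at 7.49, 7.36 and 7.45 on the Naa10-KO arrays and at 6.45, 6.38 and 6.83 on the WT arrays (log2 difference 0.88, SE 0.19, adjusted p = 0.373 over all probe sets). The Naa10-KO arrays were nearly level there and the WT arrays lower by more than their own spread. Not every probe set had this pattern. One ending in s_at, at 8.72, 9.42 and 9.22 on the Naa10-KO arrays and at 8.66, 8.82 and 9.19 on the WT arrays, differed by 0.23 with overlapping genotypes. The probe set with the lower mean in Naa10-KO fat averaged 5.64 ± 0.44 there and 6.04 ± 0.65 in WT fat. Mbp transcripts are spliced in many forms, and which of them each probe set binds was not analysed here.

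With each array left out in turn, the Mbp difference kept its sign and lay between 0.80 and 1.28. The mean of all 8 probe sets gave 0.66. The lowest adjusted p, 0.0843, came with eBayes trend and robust options, and 0 of the 16 alternatives took Mbp past the threshold. Of the immune markers, the 7 measured B cell genes summed to a linear signal of 332 to 3718 in Naa10-KO fat, against 739 to 2273 in WT fat. The 7 T cell genes summed to 861 to 1452 in Naa10-KO fat, against 1126 to 1466 in WT fat. Both sums overlapped between genotypes. The mean over the muscle markers was 11.08, 10.99 and 11.21 on the Naa10-KO arrays and 4.88, 5.28 and 8.21 on the WT arrays. For these markers, as for Mbp, WT replicate 1 was lowest and WT replicate 3 was nearest to the Naa10-KO arrays. The parts of B cells, T cells and muscle in the Mbp values were not tested.

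Other myelin genes were mixed. Of 15 measured genes of the peripheral myelin list 0 passed, and 9 means were higher and 6 lower (median log2 difference 0.06). Mal, a lipid raft protein of myelin and epithelia, was at 6.92, 6.22 and 6.42 on the Naa10-KO arrays and at 5.44, 5.36 and 5.32 on the WT arrays (log2 difference 1.14, SE 0.22, adjusted p = 0.259). Every WT array of Mal lay below 5.85, and with values below 5.85 raised to it the difference was 0.67. The second Mal probe set differed by 0.41 with overlapping genotypes. Pmp22, the peripheral myelin protein that fibroblasts and other cells also make, averaged 12.13 ± 0.22 in Naa10-KO and 12.23 ± 0.10 in WT fat (log2 difference -0.11, 95% interval -0.54 to 0.33). Ugt8a, the enzyme of galactocerebroside synthesis, was at 7.16, 7.89 and 7.73 on the Naa10-KO arrays and at 8.39, 8.56 and 8.25 on the WT arrays (log2 difference -0.81, adjusted p = 0.483). Mag, an adhesion protein of the inner myelin membrane, differed by -1.69 with a mean over the 6 arrays below 5.85. Drp2, a dystrophin-related protein of the Schwann cell surface, differed by -0.42. The other Drp2 probe sets, with means below 5.85, differed by 2.20 and -0.98. In this list the genotypes were apart for 4 genes of 15, against 18.1% of all genes. Naa10-KO was above WT for Mbp and Mal and below WT for Ugt8a and Mag.

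**Figure D3:**
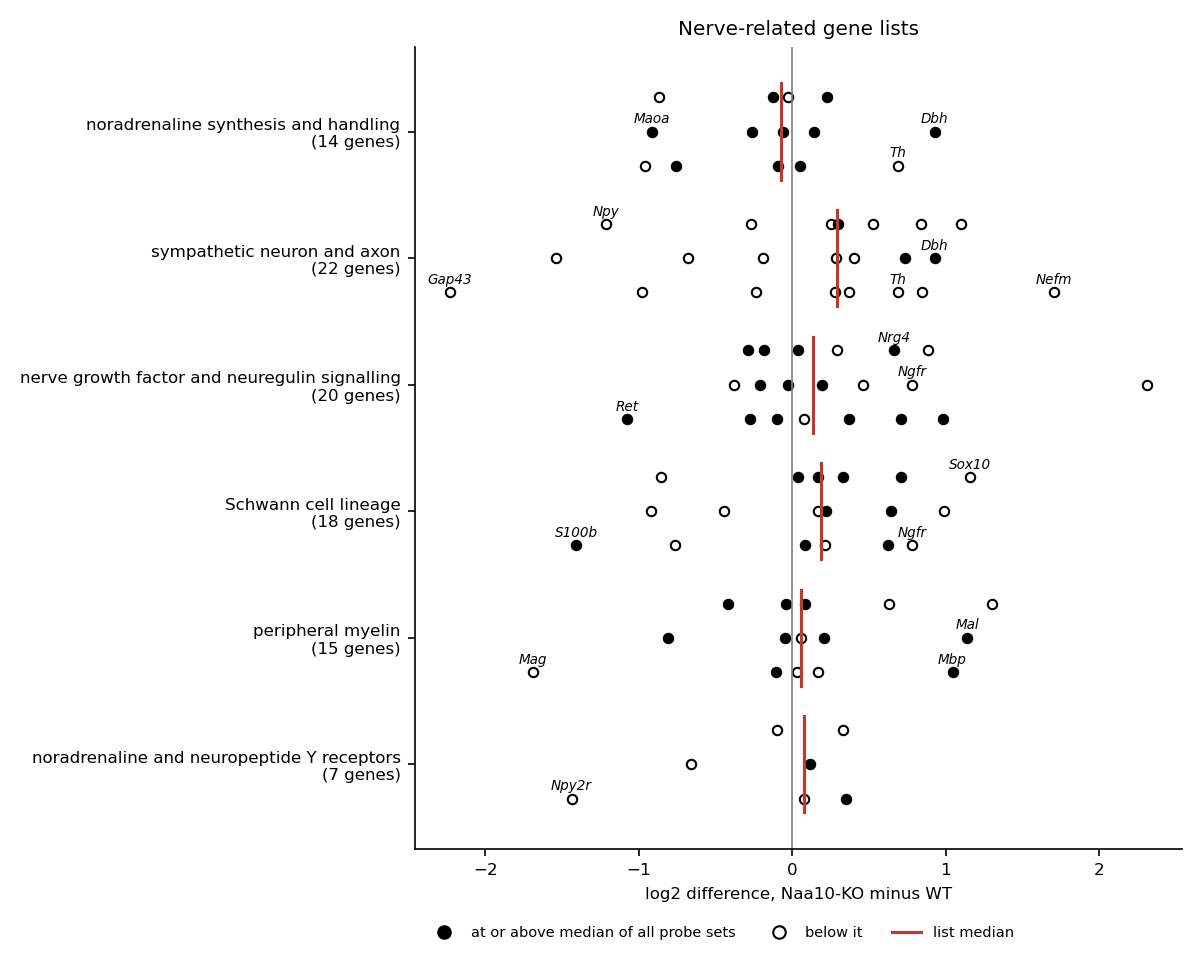
Log2 difference, Naa10-KO minus WT, of every measured gene on the 6 nerve-related lists, with 1 point per gene, open where its mean over the 6 arrays is below 5.85, and a red bar at the list median. Medians lie between -0.07 and 0.29, the points fall on both sides of 0 in each list, and none of the 90 genes passed the threshold.

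Together the 6 lists hold 109 different genes, 90 of them measured, with 0 past the threshold over all genes and 11 at an unadjusted p under 0.05. These are 12.2% of the 90, against 9.2% of all genes, and include the members S100b and Mbp.

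For the members at or above 5.85 that varied more over the arrays than the median gene, the genes of most similar profile were sought among 2556 others meeting the same conditions. Likeness was the root mean square distance between log2 values over the 6 arrays after each gene was centred on its own mean. Nearest to S100b were Slc25a1, the mitochondrial citrate carrier (distance 0.195), Ubd, a ubiquitin-like modifier (0.204), and Ddah1, which breaks down asymmetric dimethylarginine (0.230), against a median distance of 0.999. Slc25a1 was at 9.71, 10.69 and 10.92 on the Naa10-KO arrays and at 11.84, 11.90 and 11.08 on the WT arrays, with the same low Naa10-KO replicate 1 and the same low WT replicate 3 as S100b. Nearest to Mbp were Nt5dc3 (0.188), Taf9b (0.191), a relative of a general transcription factor subunit, and Ehhadh (0.201), a peroxisomal enzyme of fatty acid oxidation, against a median of 0.806. Nearest to Dbh were Ifitm1 (0.426), Radil (0.464) and Tlcd3a (0.467), against a median of 1.01. No Schwann cell or sympathetic gene of the lists was among these 9. The lists hold only 90 of the 18193 genes measured, so this absence shows little.

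**Figure D4:**
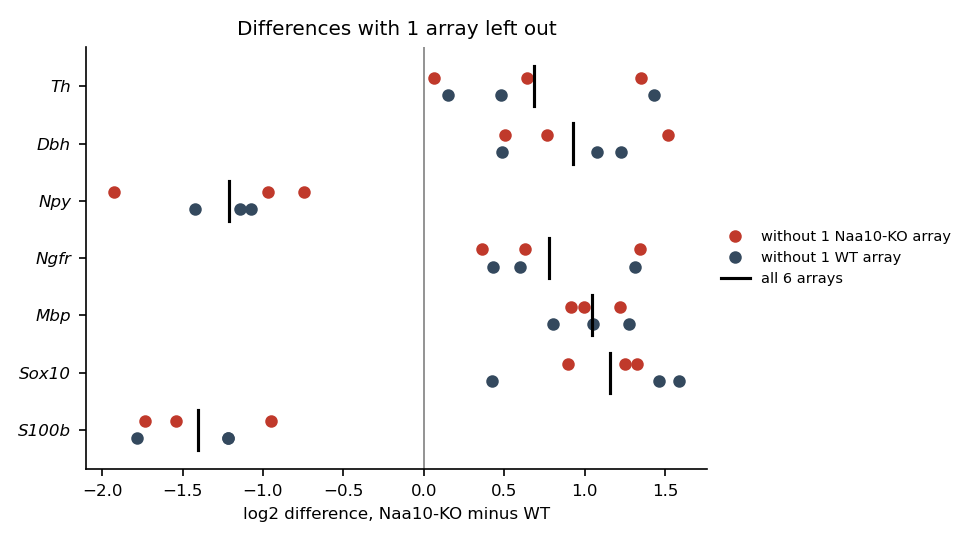
Log2 difference, Naa10-KO minus WT, of the 7 genes with all 6 arrays (black bar) and with 1 array left out (red, without a Naa10-KO array; blue, without a WT array). All differences keep their sign, with S100b between -1.78 and -0.95 and Mbp between 0.80 and 1.28, while Th comes as near to 0 as 0.07.

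All 7 differences kept their sign when single arrays were dropped. Th ranged from 0.07 without Naa10-KO replicate 2 to 1.43 without WT replicate 3. Dbh ranged from 0.49 to 1.52, Ngfr from 0.36 to 1.35, Sox10 from 0.43 to 1.59 and Npy from -1.93 to -0.74. In none of these 6 fits did a member pass the threshold, and 5 of the 6 called 0 genes among all measured.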

How the data were processed

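RNA of inguinal fat was measured on 6 Affymetrix Mouse Genome 430 2.0 arrays, 3 of each genotype and 1 per mouse, from 3 µg of total RNA purified with TRIzol and RNeasy columns, per the labels' protocols. The table that the authors deposited holds log2 signals of 45101 probe sets. Linear means trimmed by 2% at both ends equalled 500 on each array, which shows that each had been scaled to 1 level. The software used was not given in the labels. No further normalization was applied.

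Gene names came from the platform's GEO annotation (2016), which gave 1 gene for 34945 probe sets, several for 932 and none for 9160, controls aside. Each of 18193 genes was represented by its probe set of highest mean. The 2-sided test of genotype, the only term, was limma's (version 3.58.1, R 4.3.3, lmFit followed by eBayes), with Benjamini-Hochberg adjustment over all genes at 0.05; 1.39 prior degrees of freedom were borrowed per gene. Values of single probe sets are from a fit over all 34945. Means are ± SD, and the number of arrays limits the precision. The fit was tested on simulated data.

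Members and lists were chosen with earlier results of these data known. Genes named are the 7 members, genes fixed by name, up to 4 per nerve list with the smallest unadjusted p, and the 3 nearest in profile to each eligible member. Of the genes fixed by name, 6 were not analysed here. In the tests, 16 alternatives were run: quantile normalization, median centring, a filter and a floor at low values, other choices of probe set, array weights, trend and robust options, a block for replicate number and each array left out. The labels do not tie animals together by replicate number, so no block was used in the main fit.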

Additional observations from a re-analysis of the deposited data

How the results depend on the processing

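None of the 7 nerve and Schwann cell genes passed the threshold in any of 16 alternatives in limma. S100b, Mbp, Sox10, Th, Ngfr and Npy kept their direction in every alternative in which they were tested, and Dbh in 15 of 16, with -0.37 when probe sets ending in x_at and s_at were left out. With all arrays 16 genes were called higher and 5 lower. The calls, higher and lower, were 14 and 3 with quantile normalization, 103 and 13 with values floored at 5.85, 75 and 12 with low genes filtered out, 102 and 35 with trend and robust options, and 27 higher with array weights. They were 0 and 0 with each gene's probe sets averaged (1491 genes at an unadjusted p under 0.05) and with all probe sets tested one by one (2864 probe sets). With 1 array left out, 0 to 29 genes were called higher and 0 to 1 lower, where 29 and 1 came without WT replicate 3 and 0 and 0 without any other array (1220 to 1716 genes at an unadjusted p under 0.05). The cause of these shifts was not tested.

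With the replicate block, 0 genes were called higher and 0 lower (1276 at an unadjusted p under 0.05). Deviations of same-numbered arrays correlated at -0.031 to -0.0057, and those of arrays with different numbers at -0.014 to 0.020. These values showed no shared signal by number, but cannot show whether the animals were matched in some other way.

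Other differences turned sign, none past the threshold in either fit, and the cause was not tested. With probe sets averaged they were 0.41 for Ddc, 0.14 for Slc6a2, -0.17 for Erbb3, 0.38 for Tyr, -0.078 for Dhh and 0.27 for Drp2. With the floor they were 0.064 for Slc18a1 and 0.062 for Adra1b, with array weights 0.014 for Slc6a2 and -0.075 for Npy1r, and with quantile normalization -0.039 for Adipoq. With 1 array left out, differences ranged from -0.61 to 0.52 for Ddc, -0.61 to 0.025 for Slc6a2, -0.062 to 0.12 for Erbb3, -0.22 to 0.0062 for Pmp22, -0.22 to 0.54 for Npy1r, -0.26 to 0.79 for Npy4r, -1.49 to 0.60 for Adra1b and -0.33 to 0.24 for Tyr. Signals near or below 5.85 limit what the arrays can show for Th, Dbh, Npy, Ngfr and Sox10.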
